A study of Mus musculus with 30 samples.

Results

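The 7 genes described here, Dcn, Lum, Bgn, Fmod, Ogn, Prelp and Aspn, encode small leucine-rich proteoglycans (SLRPs) and were taken by gene name from the 46078 genes of the counts table. Each name matched 1 gene, and 6 of the 7 passed the filter on low counts that left 16261 genes for testing. Fmod did not pass. The libraries came from scraped colon epithelium of wild-type C57BL/6J mice, in 6 groups of 5: vehicle-treated (saline) females and males, and females and males 9 or 15 weeks after azoxymethane (AOM), a carcinogen that acts in the colon, followed by dextran sulfate sodium (DSS), which injures the colonic epithelium. Mice had 1 AOM injection of 10 mg/kg and then 3 cycles of 2.5% DSS. By the study's methods the vehicle mice were sacrificed at week 9 only. A difference between 15 weeks and vehicle therefore holds treatment and time together, which cannot be told apart. The mice were juvenile to young adult at the start. The scrape was meant to part the epithelium from the lamina propria beneath it. All groups share the wild-type background, and nothing in the labels ties libraries of different groups to one litter or day.

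SLRPs are secreted proteins of the extracellular matrix whose leucine-rich repeats bind collagen. Fibroblasts are their main source in most connective tissues, where they set the spacing and thickness of collagen fibrils. Several also bind growth factors or receptors: decorin binds TGF-beta and receptor tyrosine kinases, and soluble biglycan signals through Toll-like receptors. In the colon wall fibroblasts lie in the lamina propria, submucosa and muscle layers under the epithelium. Which cells the SLRP RNA of these scrapes came from was not tested.

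Several of the genes are neighbours in the mouse genome (mm10, positions as deposited). Dcn, for decorin (ENSMUSG00000019929, chr10:97479500-97518162), and Lum, for lumican (ENSMUSG00000036446, chr10:97565501-97572703), lie 47.3 kb apart on the plus strand with no protein-coding gene between them. Aspn, for asporin (ENSMUSG00000021388, chr13:49544443-49567557), and Ogn, for osteoglycin (ENSMUSG00000021390, chr13:49608071-49624500), lie 40.5 kb apart with 1 protein-coding gene between them, Omd, for osteomodulin, itself an SLRP. Prelp (ENSMUSG00000041577, chr1:133910304-133921414, minus strand) and Fmod, for fibromodulin (ENSMUSG00000041559, chr1:134037254-134048277), are 115.8 kb apart. Bgn, for biglycan (ENSMUSG00000031375, chrX:73483602-73495933), stands alone among the 7. Aspn and Ogn lie inside Cenpp, a gene on the opposite strand, and Prelp overlaps the antisense gene Gm15851. The library kit marks strand, but the strand setting of the counting is not given in the sources used here, so for these 3 genes reads of the opposite gene were not separated by anything stated. Cenpp itself ran from 1.90 to 6.12 CPM over the 30 libraries, and Gm15851 had 0 counts in all 30.

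The bases before the start site are shown for 4 of the 5 genes with a RefSeq promoter entry (GRCm38.p6), because Bgn, Ogn and Aspn varied together across libraries while Prelp varied less with them. Each line holds the 250 bases before the start, 5' to 3' on the gene's strand, with capitals marking matches on either strand to TATAAA (the TATA box), to CCAAT (the CCAAT box) or to GGGCGG (the GC box). Overlapping matches, as in Ogn and Bgn, run together as 1 stretch of capitals.
Bgn (chrX:73483351-73483600, plus strand): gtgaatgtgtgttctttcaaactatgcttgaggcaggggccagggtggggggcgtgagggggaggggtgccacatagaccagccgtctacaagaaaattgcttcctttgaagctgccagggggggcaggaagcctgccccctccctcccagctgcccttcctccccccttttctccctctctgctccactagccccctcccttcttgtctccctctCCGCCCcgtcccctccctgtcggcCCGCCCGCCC
Ogn (chr13:49607765-49608014, plus strand): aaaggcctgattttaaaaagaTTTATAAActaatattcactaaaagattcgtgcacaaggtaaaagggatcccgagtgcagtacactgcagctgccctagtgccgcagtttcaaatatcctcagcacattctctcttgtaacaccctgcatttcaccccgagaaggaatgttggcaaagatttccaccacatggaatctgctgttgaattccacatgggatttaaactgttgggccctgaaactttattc
Aspn (chr13:49544193-49544442, plus strand): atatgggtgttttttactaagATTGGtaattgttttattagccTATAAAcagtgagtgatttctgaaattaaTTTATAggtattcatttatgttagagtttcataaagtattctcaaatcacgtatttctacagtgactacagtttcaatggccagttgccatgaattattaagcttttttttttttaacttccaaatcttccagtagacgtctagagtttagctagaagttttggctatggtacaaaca
Prelp (chr1:133921402-133921651, minus strand): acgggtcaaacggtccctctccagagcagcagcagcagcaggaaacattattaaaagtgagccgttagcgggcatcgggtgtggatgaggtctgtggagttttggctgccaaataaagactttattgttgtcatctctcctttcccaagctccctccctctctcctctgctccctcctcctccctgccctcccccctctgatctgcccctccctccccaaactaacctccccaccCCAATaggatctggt
In the full windows, which run from 250 bases before to 50 after the start, TATAAA occurred in 2 of the 5 promoters (Aspn and Ogn) against 14.2% of 27025 RefSeq promoters. CCAAT occurred in 3 of 5 (Prelp, Fmod and Aspn) against 37.9%, and GGGCGG in 1 of 5 (Bgn) against 35.9%. TGANTCA, the letters of the AP-1 site, occurred in 0 of 5 against 7.93%. The Bgn stretch was the richest in G and C at 64.4%, with Prelp at 55.6%, Ogn at 42.0%, and Aspn the poorest. These are matches of letters, not sites shown to be used.

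Library totals ran from 9265804 to 30806392 counts. Epithelial markers were abundant everywhere, at 12951 to 31320 summed CPM, counts scaled to library size, over 8 genes. Markers of other layers were also present and uneven. Summed CPM of 12 fibroblast reference genes that include no SLRP ran from 30.8 to 203 in vehicle females, 96.8 to 1229.7 in vehicle males, 51.3 to 282 and 128 to 341 in females and males at 9 weeks, and 28.03 to 96.0 and 13.2 to 166.9 at 15 weeks. Summed CPM of 9 smooth muscle genes reached 5846 in male vehicle replicate 1, where the other 29 libraries stayed at or below 282. This library was also the highest of the 30 for all 7 SLRP genes. Values without it are given beside the edgeR tests of the SLRP genes that use vehicle males. They are not given for the marker and other gene lists, the order of the groups or the fits with a marker score. In bulk RNA, fewer fibroblasts in a scrape and less RNA per fibroblast cannot be told apart.

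Levels are given as CPM scaled by the trimmed mean of M values (TMM), which do not correct for gene length, and as the authors' TPM, which are scaled for length, where genes are compared with each other. Per length, Dcn was the highest of the 7 genes in 17 of 30 libraries, with a median of 5.31 TPM over all libraries, followed by Bgn at 3.55 and Prelp at 1.76. Ogn had a median of 0.753 TPM, Lum 0.263 and Aspn 0.164, and Fmod a median of 0. Dcn led in 5 of 5 vehicle males, 4 of 5 females and 5 of 5 males at 9 weeks, 1 of 5 vehicle females, and 1 of 5 in each sex at 15 weeks. In the vehicle females Prelp led in 4 of 5.

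**Figure D1:**
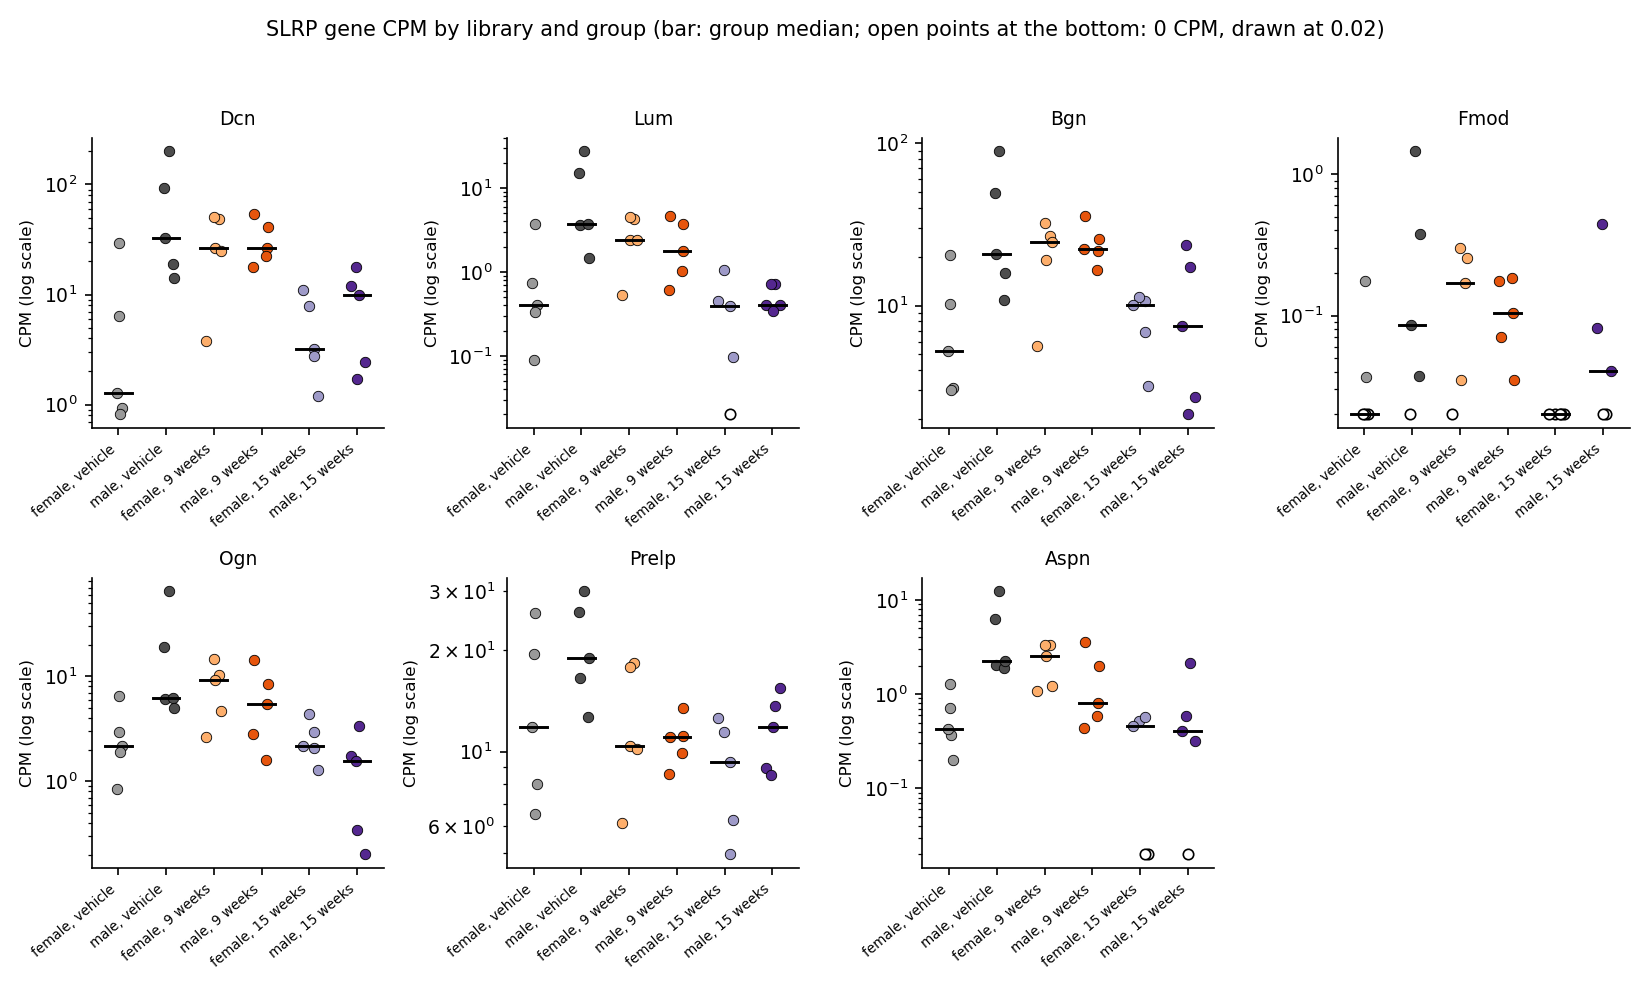
CPM (log axis) of each SLRP gene in all 30 libraries, 1 point per library in 6 groups, with the group median as a bar and libraries at 0 as open points at the bottom. Male vehicle replicate 1 is the highest point in every panel, and on the log axis the range of Prelp, 4.96 to 30.03 CPM, is the narrowest of the 6 tested genes.

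Decorin, which binds type I collagen and TGF-beta, ran from 0.814 to 203 CPM, 249.2-fold between the lowest and highest library. In vehicle females Dcn stood at 29.6, 0.933, 0.814, 6.41 and 1.28 CPM, and in vehicle males at 203, 32.6, 19.1, 14.2 and 93.2. At 9 weeks it stood at 48.8, 50.3, 26.5, 25.1 and 3.82 in females and 54.2, 17.9, 26.3, 22.6 and 41.1 in males. At 15 weeks it stood at 1.20, 3.20, 7.91, 2.78 and 10.9 in females and 9.85, 11.8, 2.46, 1.72 and 17.7 in males. The vehicle groups overlapped through female replicate 1, and in males every 15-week library lay below every 9-week library.

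Lumican, which binds collagen and regulates fibril diameter, had 0 counts in 1 library. Lum stood at 3.77, 0.406, 0.333, 0.0884 and 0.746 CPM in vehicle females and 27.9, 3.64, 3.71, 1.45 and 15.1 in vehicle males. It stood at 4.27, 4.56, 2.39, 2.42 and 0.538 in females and 4.61, 0.611, 1.77, 1.01 and 3.75 in males at 9 weeks. At 15 weeks it stood at 0.0958, 0, 1.04, 0.392 and 0.455 in females and 0.712, 0.408, 0.403, 0.344 and 0.719 in males. The male libraries at 15 weeks all lay below all vehicle males.

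Osteoglycin, also called mimecan, stood at 6.55, 2.19, 1.89, 2.96 and 0.853 CPM in vehicle females and 65.4, 6.12, 6.18, 4.94 and 19.1 in vehicle males. Ogn stood at 10.3, 14.5, 9.20, 4.64 and 2.63 in females and 14.2, 2.79, 5.45, 1.60 and 8.44 in males at 9 weeks. At 15 weeks it stood at 1.29, 2.94, 4.33, 2.07 and 2.16 in females and 3.38, 1.75, 0.201, 0.344 and 1.58 in males. As for Lum, no male library at 15 weeks reached the lowest vehicle male.

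Prelp, a collagen-binding member that anchors basement membranes to connective tissue, had the smallest spread, with an SD of 0.633 on the log2 CPM scale over 30 libraries against 2.05 for Dcn. It stood at 25.7, 8.03, 6.51, 19.5 and 11.8 CPM in vehicle females and 30.03, 16.5, 12.7, 18.9 and 26.0 in vehicle males. At 9 weeks it stood at 18.3, 17.8, 10.4, 10.2 and 6.13 in females and 11.1, 8.56, 13.4, 9.89 and 11.1 in males. At 15 weeks it stood at 6.28, 9.35, 11.4, 4.96 and 12.6 in females and 13.6, 8.94, 15.5, 11.8 and 8.53 in males. In each sex the 15-week libraries overlapped those of vehicle.

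Biglycan, the closest relative of decorin, stood at 20.6, 3.12, 3.04, 10.2 and 5.23 CPM in vehicle females and 90.02, 20.8, 10.9, 15.8 and 49.3 in vehicle males. At 9 weeks Bgn stood at 26.8, 32.2, 19.1, 24.5 and 5.64 in females and 35.4, 22.2, 21.8, 16.5 and 25.9 in males, and at 15 weeks at 3.21, 10.6, 11.3, 6.92 and 10.1 in females and 17.4, 7.47, 2.74, 2.14 and 23.5 in males. It ran from 2.14 CPM in male 15 weeks replicate 4 to 90.02 in male vehicle replicate 1, with group medians from 5.23 in vehicle females to 24.5 in females at 9 weeks. As for Prelp, vehicle and 15-week libraries overlapped in each sex.

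Asporin, whose aspartate-rich end sets it apart in the family, was at 0 in 3 libraries, all at 15 weeks. Aspn stood at 1.27, 0.203, 0.370, 0.707 and 0.427 CPM in vehicle females and 12.5, 2.06, 1.91, 2.25 and 6.31 in vehicle males. It stood at 3.34, 3.31, 2.56, 1.23 and 1.08 in females and 3.54, 0.437, 0.799, 0.583 and 1.98 in males at 9 weeks, and at 0, 0, 0.522, 0.571 and 0.455 in females and 2.14, 0.408, 0.322, 0 and 0.582 in males at 15 weeks. The vehicle males all lay above the vehicle females, and the 15-week females all lay below the 9-week females. Fibromodulin, a collagen-binding relative of lumican, had 45 counts (1.46 CPM) in male vehicle replicate 1, at most 13 in any other library and 0 in 12 libraries, 5 of them the 15-week females. A count of 0 allows up to 3 counts, or 0.0921 to 0.320 CPM depending on the library, so Fmod was not measurable here in most libraries and was not tested.

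By mean CPM, vehicle males were the highest group for all 7 genes. The 15-week females were the lowest for Dcn, Bgn, Aspn, Lum, Fmod and Prelp, and the 15-week males for Ogn. Groups next to each other in these orders overlapped for every gene. The means of vehicle males include male vehicle replicate 1. By median CPM, 9-week females stood above vehicle males for Bgn (24.5 against 20.8) and Ogn (9.20 against 6.18). The same held for Aspn (2.56 against 2.25) and Fmod (0.169 against 0.0856). For Dcn, Lum and Prelp vehicle males were the highest group by median as well. The lowest median was in vehicle females for Dcn (1.28 against 3.20 in 15-week females) and Bgn (5.23 against 10.1). For Aspn it was in 15-week males (0.408 against 0.455 in 15-week females). The mean of Dcn in vehicle females includes replicate 1, at 29.6 CPM, and for Bgn the lowest means were close (8.42 and 8.44).

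The first comparison asked how AOM/DSS changed the genes at 9 weeks, with the sexes averaged. None of the 6 tested genes was called, where a call takes an adjusted p under 0.05 over all 16261 genes (Benjamini-Hochberg, edgeR quasi-likelihood test), a log2 fold change beyond 0.4 and a mean of at least 1 FPKM (fragments per kilobase and sequencing depth) in a compared group. In this comparison 8.29% of all genes were called and 29.0% had an unadjusted p under 0.05. The log2 differences from vehicle ran from -0.57 for Prelp to 0.40 for Dcn, with a median of -0.00258 against -0.02 for all genes. Prelp had the smallest adjusted p, 0.101, and was the 1 gene with an unadjusted p under 0.05, and DESeq2 also called 0 of 6. Without male vehicle replicate 1 the log2 differences ran from -0.48 for Prelp to 0.83 for Dcn, again with 0 called.

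By sex, 5 of the 6 values differed in sign without a call. In females at 9 weeks the log2 differences from vehicle were 1.95 (SE 0.87) for Dcn, 1.92 (SE 0.81) for Aspn, 1.48 (SE 0.71) for Ogn, 1.38 (SE 0.82) for Lum and 1.35 (SE 0.62) for Bgn, with edgeR adjusted p from 0.207 to 0.426 over the 5. In males they were -1.16 (SE 0.83), -1.77 (SE 0.77), -1.65 (SE 0.70), -2.14 (SE 0.81) and -0.62 (SE 0.60), with edgeR adjusted p from 0.0917 to 0.564. Prelp was at -0.19 (SE 0.33) in females and -0.95 (SE 0.33) in males. In both sexes 0 of 6 were called by edgeR, beside 2.9% of all genes in females and 7.31% in males, and 4 of 6 had an unadjusted p under 0.05 in each, as had 17.2% and 25.4% of all genes. DESeq2 called 0 in females and 1 in males, Prelp (edgeR adjusted p 0.0689). Without female vehicle replicate 1, Dcn (log2 3.68, adjusted p 0.0154) and Lum (2.96, adjusted p 0.0441) were called in females. Without male vehicle replicate 1, the males gave 0 calls and log2 differences from -1.34 for Lum to 0.01 for Bgn. The test of the difference between the sexes gave log2 values from -3.69 for Aspn to -0.75 for Prelp, males minus females, and called 0 of 6 and 0% of all genes. Its smallest edgeR adjusted p was 0.577, with 5 of 6 (7.41% of all genes) at an unadjusted p under 0.05 and 0 called by DESeq2. Leaving out male vehicle replicate 1, it ran from -3.01 for Aspn to -0.58 for Prelp, with 0 called.

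At 15 weeks 4 of 6 genes were called lower than in vehicle with the sexes averaged, Lum, Ogn, Dcn and Prelp. In this comparison 3.89% of all genes were called lower and 7.35% in all. Lum fell by 2.86 on the log2 scale (SE 0.63, adjusted p 0.00422), 7.25-fold, and Ogn fell by 2.01 (SE 0.52, adjusted p 0.0119), 4.02-fold. Dcn fell by 1.83 (SE 0.62, adjusted p 0.0403) and Prelp fell by 0.76 (SE 0.24, adjusted p 0.0284), all by edgeR. Aspn was at -1.89 (SE 0.59) with an edgeR adjusted p of 0.0294 but under 1 FPKM in both arms, so it was not called, and Bgn was at -0.91 (SE 0.44, adjusted p 0.140). The median of the 6 was -1.86 against -0.03 for all genes, and DESeq2 called the same number, 4.

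**Figure D2:**
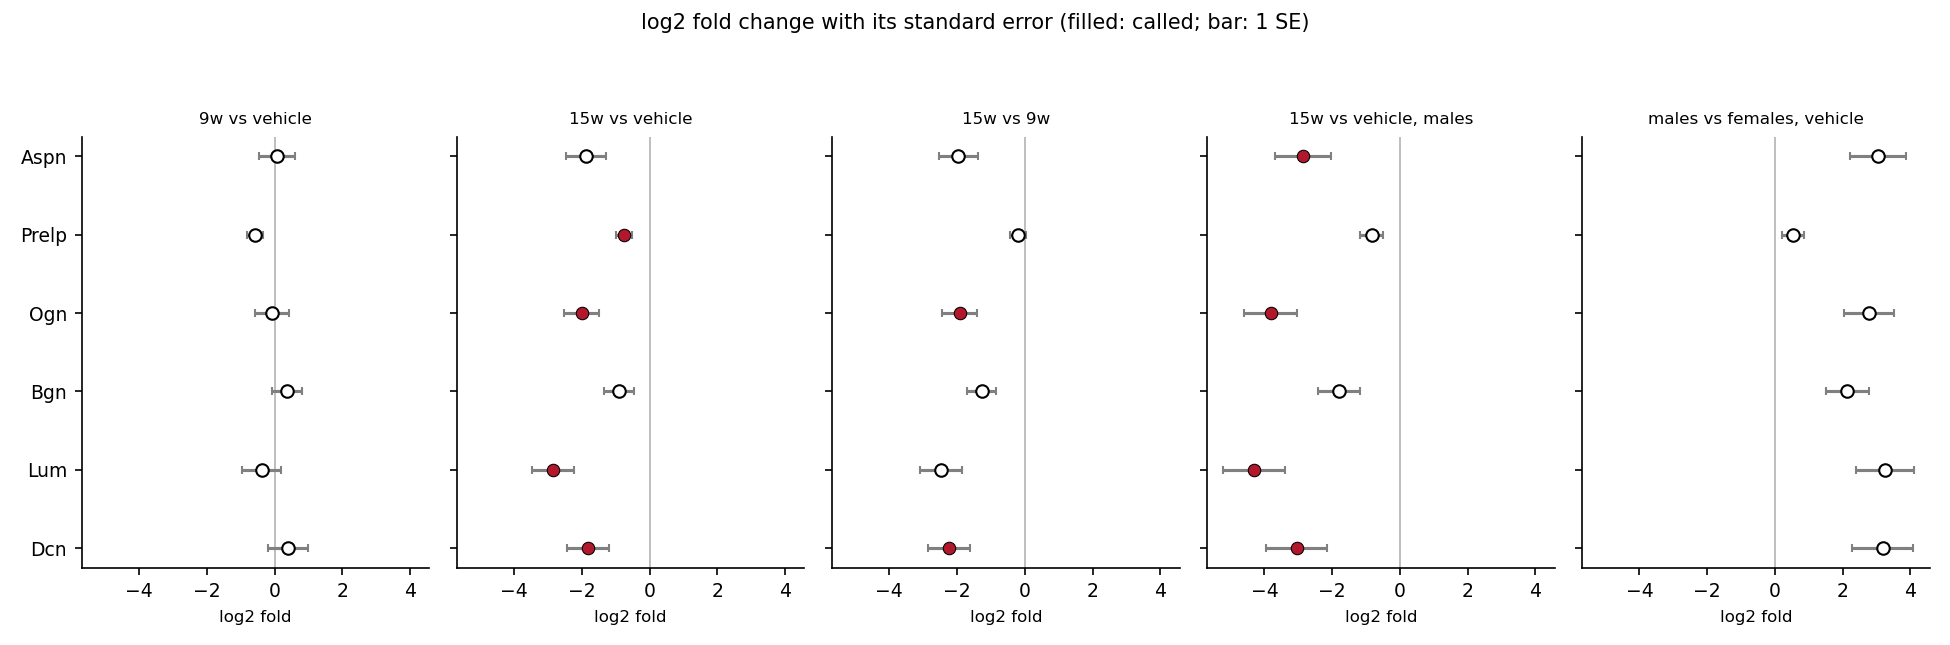
log2 fold change (x axis) of the 6 tested SLRP genes (y axis) in 5 comparisons, w standing for weeks and the first 3 panels averaging the sexes, with bars of 1 standard error and filled points for called genes. Filled points occur in 3 panels: Lum, Ogn, Dcn and Prelp at 15 weeks against vehicle, Dcn and Ogn at 15 against 9 weeks, and Lum, Ogn, Dcn and Aspn in males at 15 weeks against vehicle.

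These calls differed in how far they rested on single libraries. Leaving out each of the 20 compared libraries in turn kept Lum and Ogn called in 20 of 20 fits, Prelp in 14 and Dcn in 10. Dcn was at -0.96 (edgeR adjusted p 0.242) without female vehicle replicate 1 and -1.40 (adjusted p 0.116) without male vehicle replicate 1. Dcn was also not called without female vehicle replicate 4, male vehicle replicate 5, female 15-week replicates 1, 2 or 4 or male 15-week replicates 1, 3 or 4, with adjusted p from 0.0503 to 0.0727. Prelp was not called without female vehicle replicates 1 or 4, male vehicle replicates 1 or 5, female 15-week replicate 1 or male 15-week replicate 5, with adjusted p from 0.0512 to 0.0750. With only the 20 compared libraries in the fit, Lum and Ogn were called, and Dcn (adjusted p 0.0805) and Prelp (adjusted p 0.0532) were not. Without male vehicle replicate 1, the muscle-rich library, 2 of 6 genes were called, Lum at -2.46 and Ogn at -1.42.

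The fibroblast reference genes were lower beside these calls. At 15 weeks 7 of the 12 were called lower than in vehicle and none higher, with a median log2 difference of -1.38, among them Clec3b (-2.36), Mfap4 (-1.85) and Dpt (-1.79). Of the smooth muscle genes 7 of 9 were called lower, with a median of -2.84, and of the endothelial genes 1 of 5, Pecam1 (-0.91), with a median of -1.25. Male vehicle replicate 1 is included in these marker values, which are not given without it. With the fibroblast score, the mean log2 CPM of the 12 genes, as a covariate in the edgeR fit, 0 of 6 SLRP genes were called. The differences were then 0.12 for Dcn (adjusted p 0.813), 0.25 for Bgn (0.193), -0.33 for Prelp (0.350), -0.67 for Ogn (0.0990), -0.77 for Aspn (0.234) and -1.20 for Lum (0.101). With a smooth muscle score 0 of 6 were called as well, with Dcn at -0.32 (adjusted p 0.711) and Lum at -1.54 (adjusted p 0.0921). A covariate that moves with the groups takes up part of any group difference, and no cause of the lower levels was tested.

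**Figure D3:**
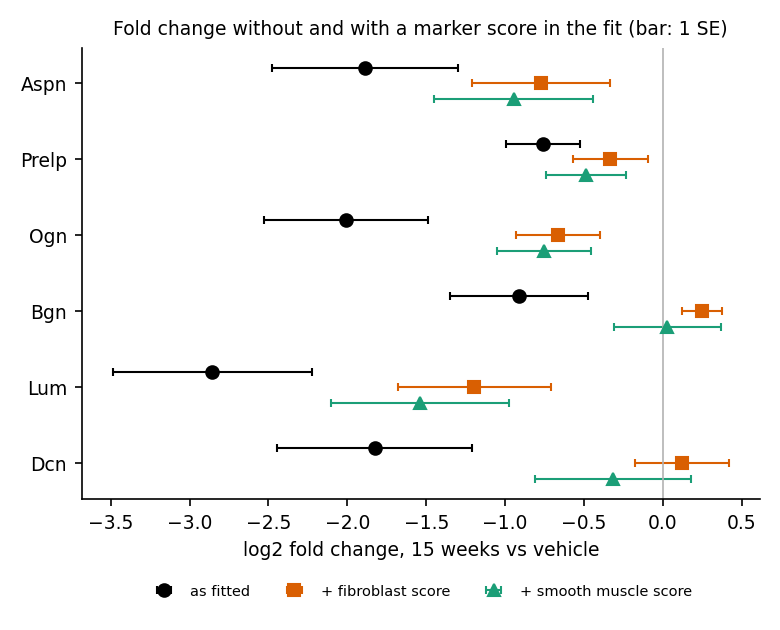
log2 fold change at 15 weeks against vehicle, sexes averaged (x axis), of the 6 tested SLRP genes (y axis), as fitted (circles) and with a fibroblast score (squares) or smooth muscle score (triangles) in the fit, with bars of 1 standard error. Lum moves from -2.86 to -1.20 and -1.54, and Dcn from -1.83 to 0.12 and -0.32.

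By sex, the calls at 15 weeks were in males. In males Lum fell by 4.304 (SE 0.92, edgeR adjusted p 0.00420), 19.8-fold, Ogn fell by 3.81 (SE 0.78, adjusted p 0.00340), 14.0-fold, Dcn fell by 3.04 (SE 0.90, adjusted p 0.0243) and Aspn fell by 2.87 (SE 0.83, adjusted p 0.0217), beside 4.55% of all genes called lower and 8.92% in all. Bgn was at -1.81 (adjusted p 0.0507) and Prelp at -0.84 (adjusted p 0.0868). The libraries of Lum and Ogn did not overlap between the groups, as was so, with 15 weeks lower, for 4.21% of all genes. Without male vehicle replicate 1, Lum (-3.51, adjusted p 0.0208) and Ogn (-2.65, adjusted p 0.0238) were still called, and Dcn (-2.18, adjusted p 0.125) and Aspn (-2.19, adjusted p 0.0997) were not. Dcn was also not called without male 15-week replicate 1 or 3 (adjusted p 0.0530 and 0.0531), nor Aspn without replicate 5 (adjusted p 0.0519). DESeq2 called 5 of 6, the fifth being Bgn (adjusted p 0.0318). Fitting the 10 compared libraries alone left 1 call, Lum (adjusted p 0.0281). In males 10 of the 12 fibroblast reference genes and 9 of 9 smooth muscle genes were called lower, and 1 of 5 endothelial genes, with an endothelial median of -1.90. These marker counts include male vehicle replicate 1 and are not given without it.

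In females at 15 weeks the log2 differences ran from -1.41 for Lum to -0.02 for Bgn. No gene was called by edgeR or DESeq2, beside 0.0984% of all genes by edgeR, and 0 of 6 had an unadjusted p under 0.05, against 10.9% of all genes. The test of the difference between the sexes called 0 of 6 by either tool and 0% of all genes, with log2 values from -3.61 for Ogn (edgeR adjusted p 0.430) to -0.15 for Prelp, and 2 of 6 (7.66% of all genes) at an unadjusted p under 0.05. Leaving out male vehicle replicate 1, it ran from -2.44 for Ogn to 0.02 for Prelp, with 0 called. A difference between the sexes in this response was therefore not shown.

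Between 9 and 15 weeks, with the sexes averaged, Dcn fell by 2.22 (SE 0.62, edgeR adjusted p 0.0402), 4.67-fold, and Ogn fell by 1.93 (SE 0.52, adjusted p 0.0356), 3.80-fold. In this comparison 1.91% of all genes were called lower and 2.32% in all. Lum, at -2.48 (adjusted p 0.0271), and Aspn, at -1.96 (adjusted p 0.0470), were under the FPKM minimum, Bgn was at -1.28 (adjusted p 0.0821) and Prelp at -0.19 (adjusted p 0.637). Both calls were close to the threshold: of 20 fits that left out 1 library, Dcn was called in 7 and Ogn in 10, with adjusted p up to 0.0794 for Dcn and 0.0764 for Ogn. Dcn was lost without female 9-week replicates 1, 2 or 4, male 9-week replicates 1, 2, 3 or 5, female 15-week replicates 1, 2 or 4 or male 15-week replicates 1, 3 or 4. Ogn was lost without female 9-week replicates 1, 2 or 4, male 9-week replicates 1 or 3, female 15-week replicates 1, 2 or 4 or male 15-week replicates 3 or 4. With the fibroblast score or the smooth muscle score in the fit neither was called (Dcn -0.37 and -1.10, Ogn -0.37 and -0.83). This comparison shares its 15-week libraries with the one against vehicle. Of the fibroblast reference genes 1 of 12 was called lower here, Col3a1 at -1.94, with a median of -1.37. Smooth muscle genes had a median of -1.75 with 0 of 9 called, and 5 endothelial genes a median of -1.76 with 1 called lower, Pecam1 (-0.98).

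Within each sex, 15 against 9 weeks gave 0 of 6 calls by edgeR and by DESeq2, where 0% of all genes were called by edgeR. At an unadjusted p under 0.05 there were 5 of 6 in females and 3 of 6 in males, and 12.6% and 13.4% of all genes. The log2 values ran from -2.83 (Aspn) to -0.49 (Prelp) in females and from -2.17 (Lum) to 0.11 (Prelp) in males. The libraries of Dcn did not overlap in males, a pattern held, with 15 weeks lower, by 1.99% of all genes, and those of Aspn did not overlap in females, where 0.843% of all genes did the same. The test of whether this change differed between the sexes called 0 of 6 by either tool and 0% of all genes, with 0 of 6 (2.23% of all genes) at an unadjusted p under 0.05.

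The last comparison set males against females. In vehicle mice the log2 differences, males over females, were 3.24 (SE 0.86) for Lum, 3.18 (SE 0.90) for Dcn, 3.04 (SE 0.83) for Aspn, 2.78 (SE 0.74) for Ogn, 2.13 (SE 0.63) for Bgn and 0.54 (SE 0.33) for Prelp. None was called by edgeR, with adjusted p from 0.0675 to 0.0764 for the first 5 and 0.4003 for Prelp, beside 0.178% of all genes called. DESeq2 called 5 of 6, all but Prelp, and 5 had an unadjusted p under 0.05 in edgeR, as had 18.7% of all genes. The same 5 were called by edgeR without female vehicle replicate 1, and also without male vehicle replicate 3 or 4. Without male vehicle replicate 1, the differences of the 5 ran from 1.51 for Bgn to 2.45 for Lum, with 0 called. Aspn, whose groups did not overlap, shared this, with males higher, with 0.996% of all genes. The fibroblast reference genes had a median of 2.47 and 0 of 12 called, and 7 of 9 smooth muscle genes were called higher in males, with a median of 5.99. These marker values include male vehicle replicate 1 and are not given without it. The smooth muscle score of that library was 8.73 log2 CPM. The group medians of this score were 3.08 in vehicle males and 0.217 in vehicle females. With the fibroblast score in the fit, the differences were 0.90 for Dcn, 1.17 for Lum, 0.92 for Aspn, 0.06 for Ogn and 0.03 for Bgn. At 9 and at 15 weeks the sexes gave 0 of 6 calls by either tool and no unadjusted p under 0.05, beside 0.0492% and 0.184% of all genes called and 3.87% and 12.4% at an unadjusted p under 0.05.

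Across the 30 libraries the genes other than Prelp varied together. As a description, with libraries that share sex, time and scrape, Spearman's rho between the 10 pairs of Dcn, Bgn, Aspn, Lum and Ogn ran from 0.807 to 0.931 (median 0.848), and between Prelp and the others from 0.434 to 0.582. After centring within groups the 2 sets of pairs overlapped, at 0.647 to 0.921 (median 0.728) and 0.459 to 0.661 (median 0.485). Bgn followed the fibroblast score most closely, with a Pearson r of 0.980 and a rho of 0.976, and r was 0.976 without the 2 libraries farthest from the median score. For Dcn r was 0.931, for Ogn 0.908, for Aspn 0.839, for Lum 0.821 and for Prelp 0.565, and 0.529 for Prelp without those 2 libraries. On the difference of log2 levels between a gene and the score, Bgn had an SD of 0.289 over 30 libraries and Prelp 1.17.

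**Figure D4:**
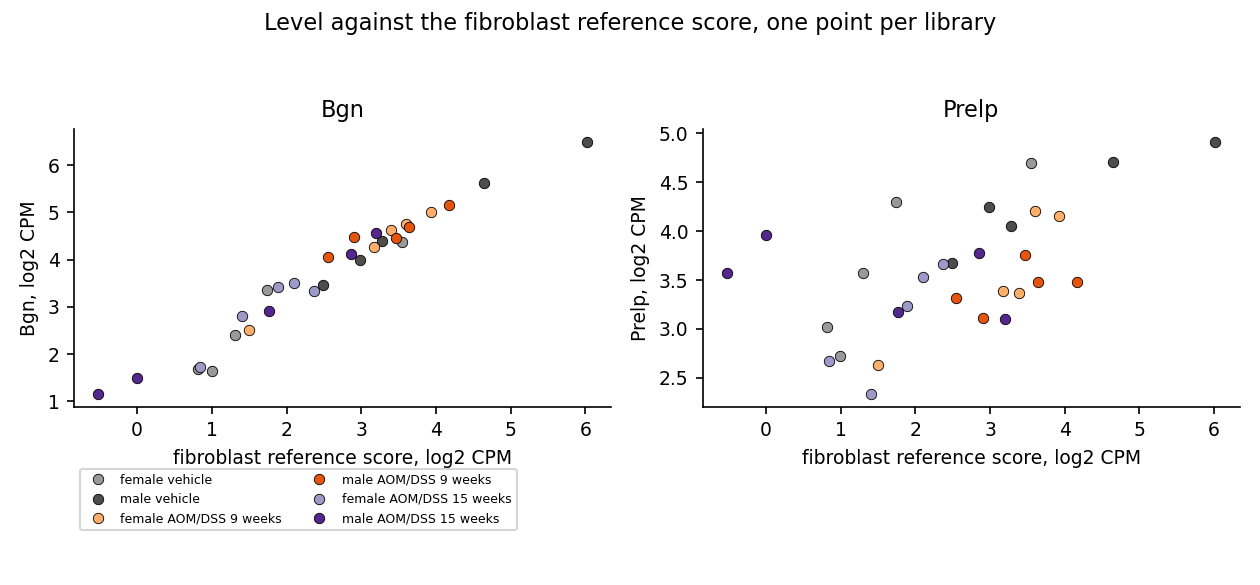
log2 CPM (y axis) of Bgn and Prelp against the fibroblast reference score, the mean log2 CPM of 12 genes (x axis), 1 point per library coloured by group. Bgn rises along a line over the 30 libraries (rho 0.976), and Prelp is scattered (rho 0.508), with male 15 weeks replicates 3 and 4 at 15.5 and 11.8 CPM beside the lowest scores.

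The genes whose pattern was most like the mean of the 6 tested members, by rho over 30 libraries, were Postn (periostin, a matrix protein, 0.968), Cav1 (caveolin-1, 0.968), Gucy1b3 (0.966), Bmp5 (0.963) and Ms4a4d (0.963). For Prelp alone the 5 highest were Dtx4, Slc1a1, Phka1, Smad5 and Tbc1d19, at 0.816 to 0.855, a list made after the values had been seen. For Bgn they were Col1a2, Sparc, Podxl, Col3a1 and Fstl1, at 0.970 to 0.982, made in the same way.

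The make-up of the summed SLRP TPM shifted between libraries. Dcn held 9.43% to 55.3% of it and Prelp 3.98% to 58.9%. In vehicle females Dcn held a median of 9.73% and Prelp 40.1%, and in vehicle males 49.1% and 12.5%. At 9 weeks the medians were 46.5% and 9.42% in females and 52.1% and 10.1% in males, and at 15 weeks 22.5% and 23.7% in females and 29.2% and 19.5% in males. The share of Bgn moved less, from 15.5% to 44.1%. No test was run on these shares, whose parts are tied to each other by their sum.

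**Figure D5:**
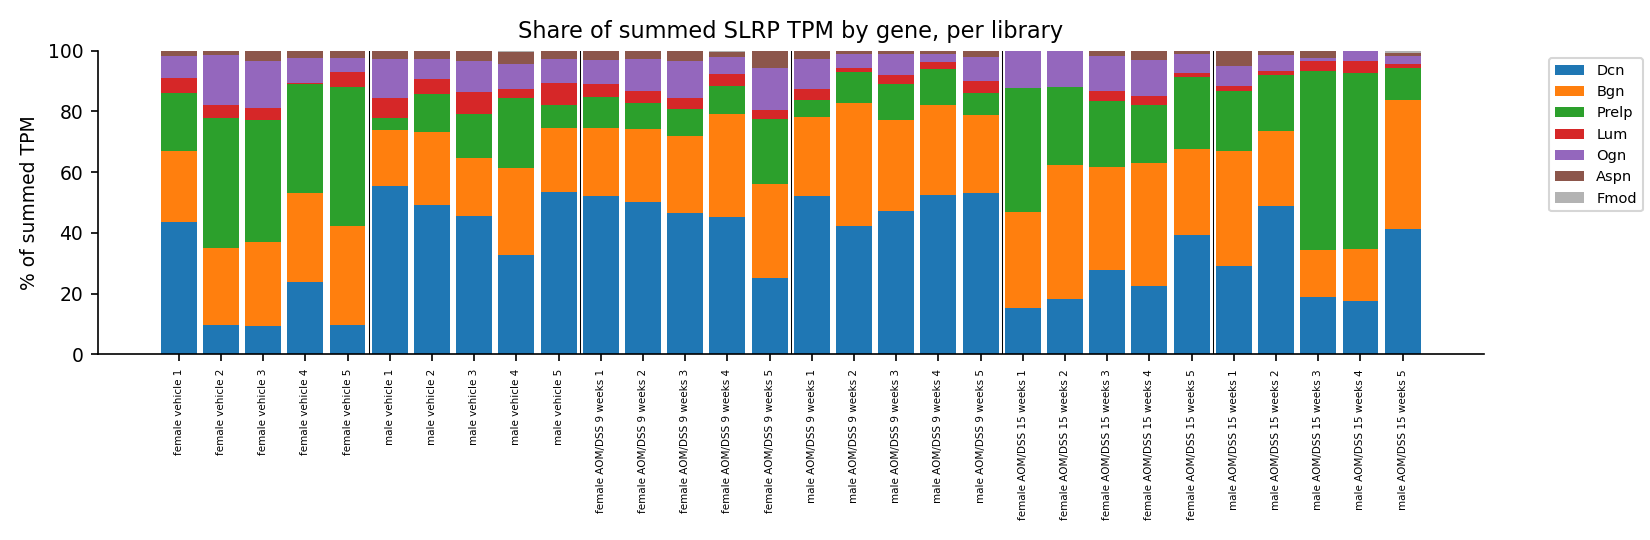
Share of the summed TPM of the 7 SLRP genes held by each gene (y axis, percent), 1 stacked bar per library in group order. Dcn (bottom) fills 45.1% to 52.2% of the bar in the first 4 females at 9 weeks, and Prelp (green) is widest in male 15 weeks replicate 3, at 58.9%.

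Of 11 other SLRP family genes, 7 were tested and none was called in any of the 3 comparisons that average the sexes. Tsku, for tsukushi, a secreted member that binds signalling ligands, ran from 30.03 to 129 CPM, and Podn, for podocan, ran from 0.0403 to 17.0 CPM. Podn fell in males at 15 weeks by 2.33 (edgeR adjusted p 0.0141), the 1 call among the 7 tested there. In that comparison 4.55% of all genes were called lower. No value for Podn without male vehicle replicate 1 is given. Omd, Kera and Epyc had 0 counts in 25, 29 and 29 libraries. Optc, for opticin, which lies beside Prelp, reached 10.4 CPM in male vehicle replicate 1 and at most 0.246 in any other library.

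Collagens are the main ligands of these proteins. Of 11 tested collagen fibril genes 4 were called lower at 15 weeks than in vehicle with the sexes averaged, Col3a1 (-1.70), Col6a3 (-1.54), Col6a1 (-1.45) and Col6a2 (-1.32), and 0 at 9 weeks, with list medians of -1.54 and 0.23. Of these genes 6 are also in the fibroblast reference list, the 4 called among them, so this count repeats part of that one. At 15 weeks against vehicle 3.89% of all genes were called lower. Of 20 tested enzymes that build the glycosaminoglycan chains, 0 were called in the 3 comparisons, with a median of -0.26 at 15 weeks against vehicle and the highest mean CPM, which is not scaled for length, for B3gnt7, B4galt1 and B4galt4.

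Several metalloproteases and granzyme B can cut SLRPs. Of 10 such genes tested, 4 were called higher at 9 weeks than in vehicle with the sexes averaged: Mmp3 by 4.54 (SE 0.89), Mmp7 by 4.37 (SE 0.81), Mmp13 by 3.85 (SE 0.72) and Gzmb by 1.81 (SE 0.58), and none lower, beside 5.51% of all genes called higher. At 15 weeks Mmp7 alone was called, at 3.66 (SE 0.79), beside 3.46% of all genes called higher, and from 9 to 15 weeks Mmp3 fell by 3.55 (SE 0.81). Of 19 binding partners and receptors, 3 were called higher at 9 weeks, Cd14 (1.41), C1qa (1.29) and Tgfb1 (0.71), and Lrp1, a clearance receptor of decorin, was called lower (-0.55). These 4 of 19 stand beside 8.29% of all genes called in either direction. At 15 weeks Cd14, a co-receptor used by biglycan, alone was called, at 0.68, a share near the 7.35% of all genes called. C1qa and Cd14 are also made by leukocytes, whose 5 markers had a median log2 difference of 0.92 at 9 weeks and 2 calls higher, and the part of those cells in these values was not tested.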

How the data were processed

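RNA from scraped colon epithelium of 30 mice was sequenced from stranded poly(A) libraries, and per the labels reads were handled with Trim Galore, STAR, featureCounts and StringTie on mm10. The authors deposited raw counts per gene, whose totals ran from 9265804 to 30806392 per library, and StringTie FPKM and TPM per sample, both scaled for gene length and depth by the authors. From 11 to 20 lines per StringTie file repeated a gene. No column was left unmapped.

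Groups came from the labels. Counts were filtered with filterByExpr (16261 of 46078 genes), scaled by TMM and tested with edgeR 4.0.16 (R 4.3.3, limma 3.58.1), with all 30 libraries and 6 group terms in 1 fit. A gene was called at an adjusted p under 0.05 over all genes tested, a log2 fold change beyond 0.4 and a mean FPKM of at least 1 in a compared group. Where sexes were averaged, the contrast was the mean of the female and male contrasts. The study's methods call the libraries of a group biological replicates, and the upper limits that a count of 0 allows cover counting error only. Of these steps, the edgeR fit alone was run on simulated counts, without the fold and FPKM rules. Those counts did not copy the uneven fibroblast and smooth muscle markers of these libraries.

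The members and gene lists were chosen with earlier results of these data known. All 7 members are named. The genes most like them are the 5 with the highest Spearman rho to the members' mean, and from each list up to 3 called genes with the smallest adjusted p are named, or with none called those at the highest level. Gzmb, Lrp1, Col6a2, Podn in males, Omd, Kera, Epyc, Optc and the genes most like Prelp or Bgn alone were named after their values were seen. Alternatives were DESeq2 1.42.0, RLE factors, no filter, adjusted p alone, the compared libraries alone, a replicate block, a fibroblast or smooth muscle score as a covariate, other level scales and leaving out each library.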

Additional observations from a re-analysis of the deposited data

Results flagged for a closer look

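Dcn in female 9 weeks replicate 5 stood apart from the other 4 libraries of its group, at 1.96 log2 CPM (3.82 CPM) against a group median of 4.74 (26.5 CPM), and the gap to the nearest library was 0.729 of the group's range. It was 1 of 36 groups of 5 looked at, and chance sets apart about 1 in 20. This library was also the lowest of its group for Bgn, Aspn, Lum, Prelp and Ogn and for the fibroblast score (1.503 log2 CPM). What set it apart was not tested.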

How the results depend on the processing

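Counts of called SLRP genes kept within 1.5 times the reported ones in 105 alternatives other than leaving out a library and moved further in 15. Most comparisons called 0 SLRP genes as reported, and a count of 0 that stayed at 0 is among the 105. That number therefore says little about how stable the calls were. At 15 weeks against vehicle with the sexes averaged, 4 became 2 with the compared libraries alone or with the replicate block and 0 with either score. At 15 against 9 weeks 2 became 1 without the filter, 4 by adjusted p alone and 0 with either score. In males at 15 weeks 4 became 1 with the compared libraries alone and 0 with either score. Where 0 were called, 1 was called at 9 weeks with the fibroblast score (Prelp, -0.64), 1 in males at 9 weeks by DESeq2 or with the compared libraries alone, and 5 between vehicle sexes by DESeq2. Of all genes, calls at 9 weeks went from 1348 to 2634 by adjusted p alone, and at 15 weeks from 1195 to 2832 by adjusted p alone and 622 with the smooth muscle score. At 15 against 9 weeks they went from 378 to 576 by DESeq2, 223 without the filter, 807 by adjusted p alone, 18 with the smooth muscle score and 0 with the fibroblast score.

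Leaving out 1 library gave 2 to 5 called SLRP genes at 15 weeks against vehicle, 0 to 4 at 15 against 9 weeks, 0 to 1 at 9 weeks, 2 to 5 in males at 15 weeks, 0 to 2 in females at 9 weeks and 0 to 5 between vehicle sexes, and 95 to 1185 of all genes at 15 against 9 weeks. Signs turned among uncalled values: at 9 weeks with the sexes averaged the range was -0.23 to 0.42 for Aspn, -0.58 to 0.41 for Lum and -0.34 to 0.50 for Ogn, and -0.38 to 0.13 for Prelp in females and -0.85 to 0.00879 for Bgn in males. In females at 15 weeks it was -0.23 to 0.65 for Bgn, -1.08 to 1.118 for Dcn, -2.11 to 0.18 for Lum and -0.48 to 0.34 for Ogn.

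With the fibroblast score the sign turned for Dcn (0.12) and Bgn (0.25) at 15 weeks, for Aspn at 9 weeks (-0.15), for Prelp (0.31) and Bgn (0.0145) at 15 against 9 weeks, for Dcn (0.13) and Bgn (0.21) in females at 15 weeks, for Dcn (0.0772) and Bgn (0.28) in males at 9 weeks, for Dcn (0.11) and Bgn (0.28) in males at 15 weeks and for Prelp between vehicle sexes (-0.0220). With the smooth muscle score it turned for Ogn at 9 weeks (0.0809), Bgn at 15 weeks (0.0286), Prelp at 15 against 9 weeks (0.0631), Dcn (0.0383) and Bgn (0.19) in females at 15 weeks, Dcn (0.64), Ogn (0.0816) and Bgn (0.70) in males at 9 weeks and Ogn between vehicle sexes (-0.0815). By DESeq2 Bgn in females at 15 weeks was at 0.0060. The cause was not tested. On FPKM and TPM, vehicle males kept the highest mean for every gene, and 7 of 14 orders of the groups were those by CPM. All these means include male vehicle replicate 1. By median TPM, 9-week females stood above vehicle males for Dcn (10.6 against 7.77) and Bgn (5.87 against 4.50). They also did for Ogn (2.14 against 1.29) and Aspn (0.756 against 0.621), but not for Lum, Prelp or Fmod.

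Replicate numbers were not shown to pair libraries: deviations of same-numbered libraries had a median r of -0.026 over 75 pairs, with 12 over 0.1, and 4 of 30 libraries correlated best with their own number. With the replicate block, 2 SLRP genes were called at 15 weeks, without Dcn (-1.29, edgeR adjusted p 0.143) and Prelp (-0.71, adjusted p 0.0558), and the sign turned for Lum (0.17) and Ogn (0.11) at 9 weeks and for Dcn (0.0944), Ogn (0.10) and Bgn (0.33) in females at 15 weeks. Fmod, Lum and Aspn had libraries at 0 counts, where up to 3 counts cannot be told from none.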
